A study of Mus musculus with 4 samples.

Results

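Ephb2, Ephb3, Ephb4, Ephb6, Epha2, Efnb1, Efnb2 and Efna1 encode Eph receptors and ephrin ligands that take part in placing cells along the crypt and villus, and in vessels. They were chosen by name, as 8 of the 27514 genes that all the deposited gene tables share, and their unique molecular identifiers (UMIs, 1 per captured RNA molecule) were summed over cells gated by marker genes in each library. The libraries came from droplet-based 3′ single-cell RNA sequencing (scRNA-seq) of unsorted small-intestinal adenomas from 11-week-old C57BL/6 mice labelled male. The 2 libraries labelled ApcMin carry ApcMin/+ with Lef1 +/+, and the 2 labelled VApcMinL carry ApcMin/+ with Lef1 fl/fl and Villin-Cre, a Cre driver active in the intestinal epithelium, so Lef1 is targeted there and not in stromal cells. The ApcMin allele is shared by all 4 libraries, each of which pools several tumors, and no library of normal intestine was used here. In both groups replicate 1 was made with kit version 2 and replicate 2 with kit version 3, so the kit is the batch that pairs the groups.

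Eph receptors are tyrosine kinases that bind ephrins held in the membrane of a neighbouring cell, so the signal passes only where cells touch, and it can run into both cells. EphB2 and EphB3 are known Wnt/β-catenin targets in the intestinal crypt, and ephrin-B1 and ephrin-B2 are known to be expressed by the differentiated cells above them. The opposing gradients keep proliferating cells in the crypt and Paneth cells at its base, while in blood vessels EphB4 and ephrin-B2 are the classical venous and arterial marks. Lef1 is 1 of the DNA-binding partners of β-catenin.

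The promoters of Ephb2, Ephb3 and Epha2 are printed because the 2 EphB genes stood higher in adenoma-like than in enterocyte-like cells and Epha2 stood lower, while Lef1 and its relatives bind a short known DNA motif. The RefSeq promoter table for GRCm38.p6 gave 9 windows for the 8 members, each from 250 bases before to 50 bases after a start site, of which the 250 bases before it are shown here. Capitals mark a match to CTTTGNN on either strand, where each of both last letters is A or T. The Ephb2 bases lie on the minus strand at chr4:136836013-136836262, the Ephb3 bases on the plus strand at chr16:21204545-21204794 and the Epha2 bases on the plus strand at chr4:141300971-141301220.
Ephb2: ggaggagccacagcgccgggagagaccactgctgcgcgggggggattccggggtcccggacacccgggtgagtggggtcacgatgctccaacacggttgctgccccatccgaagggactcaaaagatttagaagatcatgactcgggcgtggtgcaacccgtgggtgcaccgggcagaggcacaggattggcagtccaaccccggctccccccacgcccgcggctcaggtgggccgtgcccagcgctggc
Ephb3: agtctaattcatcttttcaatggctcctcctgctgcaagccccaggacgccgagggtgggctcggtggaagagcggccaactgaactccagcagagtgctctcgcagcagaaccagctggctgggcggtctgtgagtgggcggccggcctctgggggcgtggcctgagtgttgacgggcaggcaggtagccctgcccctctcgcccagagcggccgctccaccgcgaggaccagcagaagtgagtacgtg
Epha2: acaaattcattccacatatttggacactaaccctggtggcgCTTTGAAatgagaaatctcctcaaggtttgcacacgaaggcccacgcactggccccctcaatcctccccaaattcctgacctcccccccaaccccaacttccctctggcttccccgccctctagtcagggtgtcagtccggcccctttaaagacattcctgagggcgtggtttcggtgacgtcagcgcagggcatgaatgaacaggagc
Of the 9 whole windows, 1 held a match. It was CTTTGAA in the Epha2 window, starting at position -209 from the start site, while the share of all 32851 windows of the same length with a match was 16.9%. The windows of Ephb2 and Ephb3 held none of these letters, which says nothing of enhancers farther away. The member windows had a GC content of 54.7 to 76.3%, against a median of 52.7% over all windows.

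Between 2146 and 4449 barcodes per library passed the limits of at least 1000 UMIs and at most 20% mitochondrial UMIs, 12400 in all, with a median of 8453 to 25465 UMIs each. The deposited tables held 44660305 to 128247396 UMIs per library. The mitochondrial limit removed 62.9% of the barcodes in ApcMin replicate 2 and 27.3 to 30.5% in the others, and the kit version 2 libraries shared 18 kept barcodes. The gates gave 335 to 1792 adenoma-like and 357 to 1056 enterocyte-like cells per library. Crypt-like cells, which had to hold Olfm4, reached 10 cells only in the kit version 3 libraries (53 in ApcMin and 116 in VApcMinL), and endothelial-like cells only in the kit version 2 libraries (120 in ApcMin and 66 in VApcMinL). Paneth-like cells numbered 10 to 24 and fibroblast-like cells 13 to 98 per library.

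Library names are those of the labels, which the data did not bear out in full. Lef1, the targeted gene, was at 10.5 and 38.1 CPM (counts per 1000000, here UMIs of the gene per 1000000 UMIs of the same cells) in the adenoma-like cells of the libraries labelled ApcMin and at 30.0 and 24.9 in those labelled VApcMinL (replicates 1 and 2). Its fitted log2 difference was 0.42 (SE 0.57, edgeR adjusted p = 1), so no loss of Lef1 transcript was seen, and whether the 3′ reads lie in the floxed part is not given in the sources used here. Although all mice were labelled male, Xist was at 811 and 286 CPM in the libraries labelled VApcMinL and at 0.26 and 0.20 in those labelled ApcMin. The Y-linked Ddx3y was absent from VApcMinL replicate 1 and at 21.7 to 35.3 in the other 3 libraries, so VApcMinL replicate 2 held both. Any difference between the groups therefore cannot be told apart from one between sexes.

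The crypt receptors Ephb2 and Ephb3 stood higher in undifferentiated than in absorptive epithelium. Ephb2, the receptor that marks the lower crypt (chromosome 4, 136647539 to 136835988, minus strand, GRCm38), was at 42.7 and 39.6 CPM in adenoma-like cells of the ApcMin libraries and at 31.9 and 48.4 in those of the VApcMinL libraries. In crypt-like cells it was at 45.2 (ApcMin) and 41.3 (VApcMinL), and in enterocyte-like cells at 13.3 and 10.4 (ApcMin) and 17.3 and 16.1 (VApcMinL). The adenoma-like and enterocyte-like levels did not overlap. The crypt-like and adenoma-like levels did overlap, as did those of Paneth-like cells (21.1 to 43.8). So did those of enteroendocrine-like cells, a differentiated class (32.7 to 53.6 in 3 libraries). The levels in enterocyte-like cells also overlapped those of the cell-free barcodes, which hold 10 to 100 UMIs each and gave 10.5 to 16.3 CPM. Fibroblast-like cells held 3 UMIs of Ephb2 in all 4 libraries together, endothelial-like cells 1 in both kit version 2 libraries, and myeloid-like cells none. T cell-like, B cell-like, mast-like, mural-like and red blood cell-like sums held 0 to 4 UMIs per library, which came to 0 to 22.2 CPM, so that the highest of them reached past the enterocyte-like values.

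Ephb3, a second crypt receptor that Paneth cells need for their place at the base (chromosome 16, 21204755 to 21223305, plus strand), was at 67.7 and 58.0 CPM in adenoma-like cells of the ApcMin libraries and at 61.5 and 57.6 in those of the VApcMinL libraries. It was at 16.7 and 19.3 in the crypt-like cells of the kit version 3 libraries and at 19.3 to 46.7 in Paneth-like cells. Enterocyte-like cells held 1.70 to 3.06 in 3 libraries and 8.67 in VApcMinL replicate 2. No crypt-like, Paneth-like or enterocyte-like value reached the lowest adenoma-like value, and adenoma-like cells had the highest mean of the 15 classes with at least 10 cells in 2 or more libraries (61.2 ± 4.68, SD, n = 4). Paneth-like cells came next at 36.3 ± 11.9 (SD, n = 4), with no overlap between both ranges. Enteroendocrine-like cells followed at 25.5 ± 6.85 (SD, n = 3).

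Ephb4, best known as the venous receptor (chromosome 5, 137350109 to 137378669, plus strand), had its highest level in endothelium, at 108 CPM in ApcMin replicate 1 and 123 in VApcMinL replicate 1. Crypt-like cells followed at 32.1 and 32.4, and adenoma-like cells at 17.2 and 25.3 (ApcMin) and 19.1 and 18.8 (VApcMinL). These 3 classes did not overlap. Enterocyte-like cells held 2.25 to 4.97, below every cell-free value (18.9 to 34.7), and the adenoma-like values overlapped the cell-free ones. Ephb6, a receptor whose kinase domain is inactive (chromosome 6, 41605482 to 41620509, plus strand), was rare everywhere, at 2.56 to 4.66 in adenoma-like and 2.42 to 13.4 in fibroblast-like cells, where it rested on 1 to 5 UMIs per library.

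Epha2, an A-type receptor of epithelial cells that binds ephrin-A1 (chromosome 4, 141301240 to 141329384, plus strand), ran the other way along the epithelium. Enterocyte-like cells held 79.1 and 93.6 CPM in the kit version 2 libraries but 32.0 and 23.2 in the kit version 3 libraries (ApcMin first). Adenoma-like cells held 35.4 and 21.8, then 13.04 and 16.03, in the same order. Both classes were higher with kit version 2, and within each library the enterocyte-like value was the higher of the pair. Paneth-like cells held 1.56 to 14.1 on 1 to 6 UMIs per library. Crypt-like cells held 1.81 and 3.101, under the cell-free values of their own libraries (15.5 and 16.2).

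Of the ligands, Efna1 and Efnb2 had their highest mean level in endothelial-like cells and the next in enterocyte-like cells. Efna1, encoding ephrin-A1 (chromosome 3, 89271733 to 89281142, minus strand), was at 166 and 114 CPM in enterocyte-like cells of the ApcMin libraries and at 159 and 96.8 in those of the VApcMinL libraries. Adenoma-like cells held 18.1 to 37.4, crypt-like cells 18.5 and 21.0 and fibroblast-like cells 4.59 to 32.5. Endothelial-like cells held 221 (ApcMin) and 174 (VApcMinL), above every enterocyte-like value. The cell-free level was 79.9 to 106, higher than in any adenoma-like, crypt-like or fibroblast-like sum.

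Efnb2, encoding the B-type ligand known as the arterial mark (chromosome 8, 8617434 to 8661242, minus strand), was at 44.5 to 73.5 CPM in enterocyte-like cells. Adenoma-like cells held 23.3 and 21.0 in the ApcMin libraries but 9.51 and 31.8 in the VApcMinL libraries, whose values lay below and above both others. Crypt-like cells held 7.24 and 5.86, and endothelial-like cells 88.6 and 77.1. Efnb1, encoding the other B-type ligand and located on the X chromosome (99136130 to 99148991, plus strand), varied least: 27.5 to 32.4 in adenoma-like, 36.2 and 35.8 in crypt-like, 54.1 to 65.2 in enterocyte-like, 26.8 to 48.8 in fibroblast-like and 57.8 and 45.7 in endothelial-like cells. The adenoma-like and enterocyte-like ranges of Efnb1 did not overlap. Its cell-free level was 42.4 to 59.0, and that of Efnb2 was 27.3 to 76.1.

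**Figure D1:**
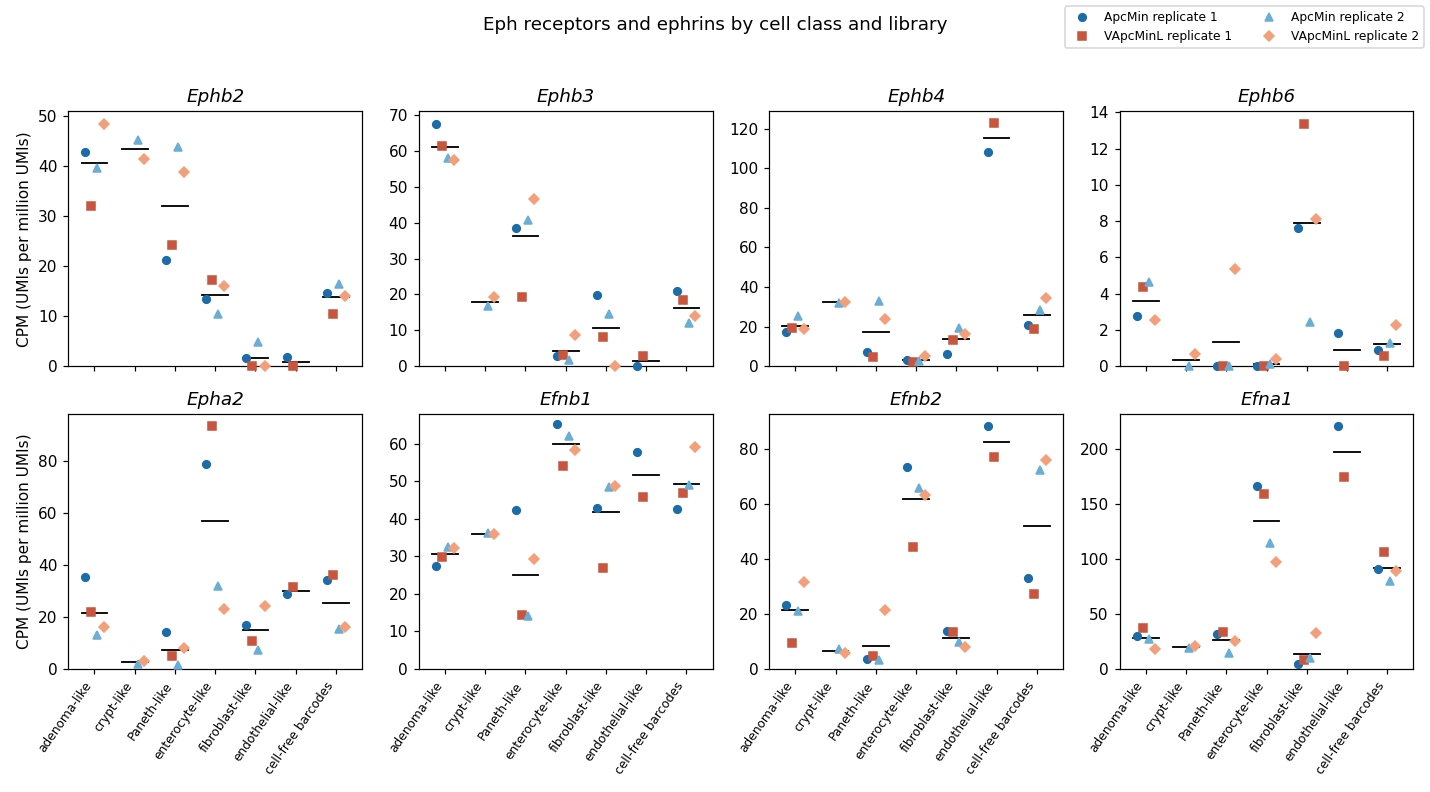
Level in CPM of each member (vertical axis, linear, starting at 0) by cell class (horizontal axis), 1 point per library with at least 10 cells of the class (or its cell-free barcodes), and black lines at the means. Ephb2 and Ephb3 are high in adenoma-like and low in enterocyte-like cells, Efna1 and Efnb2 show the opposite order, and Ephb4, Efnb2 and Efna1 are high in endothelial-like cells.

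The first test asked how adenoma cells differ from enterocytes of the same libraries. All 8 members passed, 4 higher and 4 lower in adenoma-like cells, where 75.4% of the 12382 genes tested were called (39.2% higher and 36.2% lower), so the count itself says little about the members. On the log2 scale of edgeR with TMM scaling (trimmed mean of M-values) and the library as a block, Ephb2 was higher by 0.84 (SE 0.18, adjusted p = 0.00274), Ephb3 by 3.38 (SE 0.36, adjusted p = 6.58e-05) and Ephb4 by 2.07 (SE 0.25, adjusted p = 0.000146). Ephb6 was higher by 3.90 (SE 0.68, adjusted p = 0.000969), with 272 UMIs against 8. Efna1 was lower at -2.94 (SE 0.13, adjusted p = 7.64e-07), Efnb2 at -2.28 (SE 0.20, adjusted p = 2.69e-05), Epha2 at -1.94 (SE 0.24, adjusted p = 0.000162) and Efnb1 at -1.64 (SE 0.12, adjusted p = 1.06e-05). Each sign held in 4 of 4 libraries, although for Ephb6 the enterocyte-like sums of kit version 2 held no UMI. The median of all genes was 0.08 with TMM and 0.76 with library totals, and the called genes were then 72.7% higher in place of 52.0%. No member changed direction between both scalings. Ephb2 lost its call at a mitochondrial limit of 10% (log2 difference 0.35, adjusted p = 0.102).

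Crypt-like cells were compared with enterocyte-like cells in the 2 kit version 3 libraries. Of 7 members tested, Ephb2 (1.22), Ephb3 (1.63) and Ephb4 (2.71) were higher and Epha2 (-3.93), Efnb2 (-3.83), Efna1 (-2.92) and Efnb1 (-1.26) lower, with SEs of 0.20 to 0.50 and adjusted p of 5.23e-05 to 0.0286. The background was 57.6% of genes called, 26.2% higher and 31.4% lower. The members thus took the same sides as in adenoma-like cells, although both comparisons share the enterocyte-like sums. Ephb3 had the largest adjusted p and lost its call without the library block (adjusted p = 0.127) and at a mitochondrial limit of 10% (adjusted p = 0.124). Library totals moved the median of all genes from -0.07 to 0.45 and the share of higher calls from 45.5 to 65.8%, and turned no member.

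Set directly against crypt-like cells, adenoma-like cells had more Ephb3 (log2 difference 1.53, SE 0.20, adjusted p = 5.53e-05), more Epha2 (2.40, SE 0.37, adjusted p = 0.000223) and more Efnb2 (1.89, SE 0.29, adjusted p = 0.000218). Ephb4 was lower at -0.72 (SE 0.20, adjusted p = 0.0151), and Ephb6 was higher by 2.96 (SE 0.91, adjusted p = 0.0237), both without a call in DESeq2 (adjusted p = 0.203 and 0.209). The Ephb6 contrast rested on 2 UMIs in crypt-like cells, a ratio of 7.61 with an exact 95% interval of 2.08 to 63.3, and its call was also lost without the library block (adjusted p = 0.0597). Ephb2 differed by -0.12 (SE 0.19, adjusted p = 0.685), Efnb1 by -0.30 (SE 0.19, adjusted p = 0.248) and Efna1 by -0.01 (SE 0.24, adjusted p = 0.973). With 4 higher and 1 lower of 8, against 18.3% higher and 13.9% lower among all genes (32.2% called), Ephb3 was called and Ephb2 was not, and the difference between their changes was not tested. Lef1 itself held 1 UMI in the crypt-like cells of each library, the adenoma-like level being 70.3 times higher (exact 95% interval 19.4 to 581). The gates took adenoma-like cells by Wnt-induced markers and crypt-like cells only with an adenoma score under 0.1. The part of this choice in the Lef1 and Ephb3 differences was not tested. Library totals moved the median of all genes from 0.03 to 0.17 and the share of higher calls from 56.9 to 68.3%, and gave Ephb2 0.03 and Efna1 0.13. Crypt-like cells also held 6576 and 8492 CPM over 7 Paneth markers (628 to 1048 in adenoma-like cells) and 7748 to 7954 over 7 goblet markers, and the part of those cells in these differences was not tested.

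Paneth-like cells, in all 4 libraries, showed the same sides as crypt-like cells against enterocyte-like cells. Ephb3 was higher by 3.63 (SE 0.43, adjusted p = 2.77e-06), Ephb4 by 2.84 (SE 0.50, adjusted p = 0.000175) and Ephb2 by 1.55 (SE 0.32, adjusted p = 0.000667). Efnb2 (-2.47), Epha2 (-2.44), Efna1 (-2.08) and Efnb1 (-1.02) were lower, so that 3 were higher and 4 lower of 7 tested, against 21.7% and 25.6% of all genes (47.2% called). The Efnb1 call (adjusted p = 0.0141) was lost without ApcMin replicate 2 (log2 difference -0.69, adjusted p = 0.155) and without VApcMinL replicate 1 (-0.91, adjusted p = 0.0536). The sums rest on 10 to 24 cells per library, and the 17 cells of VApcMinL replicate 1 had a median of only 1956 UMIs. Library totals moved the median of all genes from -0.04 to -0.29 and the share of higher calls from 45.9 to 33.7%, and turned no member.

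**Figure D2:**
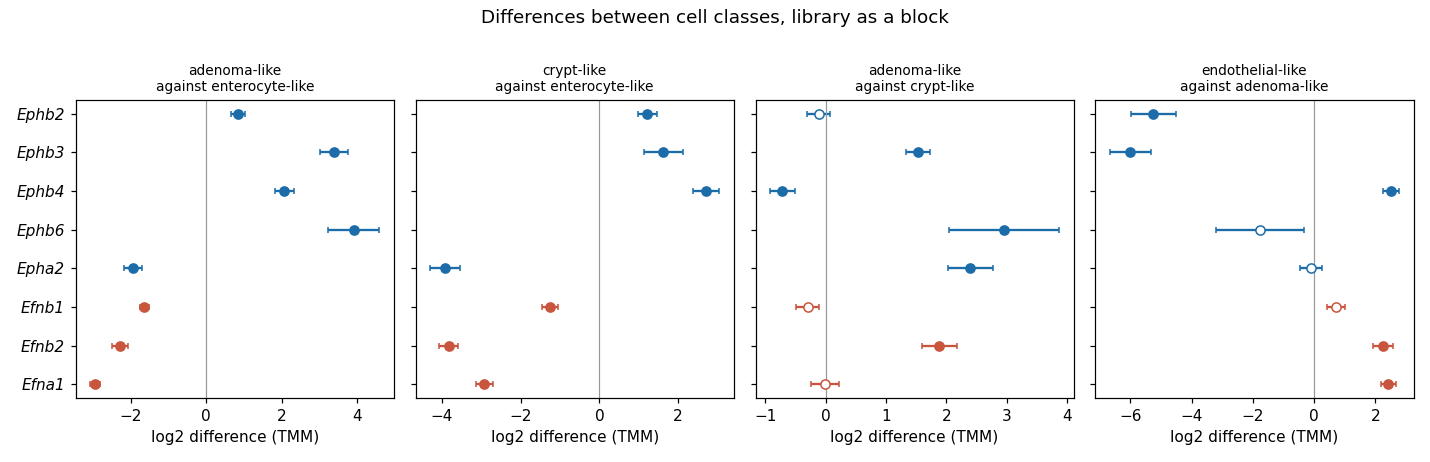
Log2 difference of each member (horizontal axis, edgeR with TMM scaling, bars 1 SE) in 4 comparisons of cell classes, with receptors in blue, ligands in red and filled points for adjusted p below 0.05. The 3 ligands and Epha2 lie left of 0 in both comparisons with enterocyte-like cells, Ephb2 lies near 0 between adenoma-like and crypt-like cells, and Ephb4, Efnb2 and Efna1 lie right of 0 in endothelial-like cells.

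The members were followed further over 4 steps of the enterocyte marker score, a mean of log values over 10 enterocyte genes. Epithelial cells that scored 1 or more were used. The adenoma-like gate took no such cell, so cells with adenoma markers were not left out here. Crypt or villus position was not measured, and the part of a changing mix of tumor and normal cells was not tested. Ephb2 was lower at each next step in 4 of 4 libraries, from 28.1 to 36.4 CPM at scores of 1 to 2 down to 2.53 to 10.5 at scores over 3.5. In ApcMin replicate 1 the 4 values were 28.1, 21.4, 10.9 and 2.53, and in VApcMinL replicate 1 they were 32.2, 27.2, 14.3 and 10.5. The replicate 2 libraries gave 32.8, 19.3, 11.2 and 5.39 (ApcMin) and 36.4, 24.7, 13.7 and 7.75 (VApcMinL). All 4 libraries thus gave the same order. Within each kit the library labelled VApcMinL was above the one labelled ApcMin at all 4 steps, a difference that was not tested along the score.

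Ephb3 was lower at each next step in 3 of 4 libraries, from 5.50 to 22.6 at the lowest scores to 0 to 1.75 at the highest, and VApcMinL replicate 2 was highest at every step. Ephb4 ended below its start in 4 of 4 libraries (12.4 to 16.3, then 0.87 to 2.53). Efna1 ended above its start in 4 of 4, from 43.2 to 56.1 at the lowest scores to 118 to 192 at the highest, with most of the difference reached by scores of 3 to 3.5. Epha2 also ended higher in 4 of 4 (17.4 to 48.3, then 30.5 to 109.9). In plain CPM the B-type ligands did not follow ephrin-A1 along this score. Efnb1 ended lower in 4 of 4 libraries (58.4 to 76.1, then 43.1 to 60.3), and Efnb2 ended higher in 2 and lower in 2. These steps are descriptions without a test, in plain CPM. Median depth ranged from 14110 to 28223 UMIs at the lowest scores and from 7608 to 27378 at the highest. Library totals in place of TMM moved the median of all genes from 0.08 to 0.76 between adenoma-like and enterocyte-like cells. The part of such a shift along the score was not tested.

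**Figure D3:**
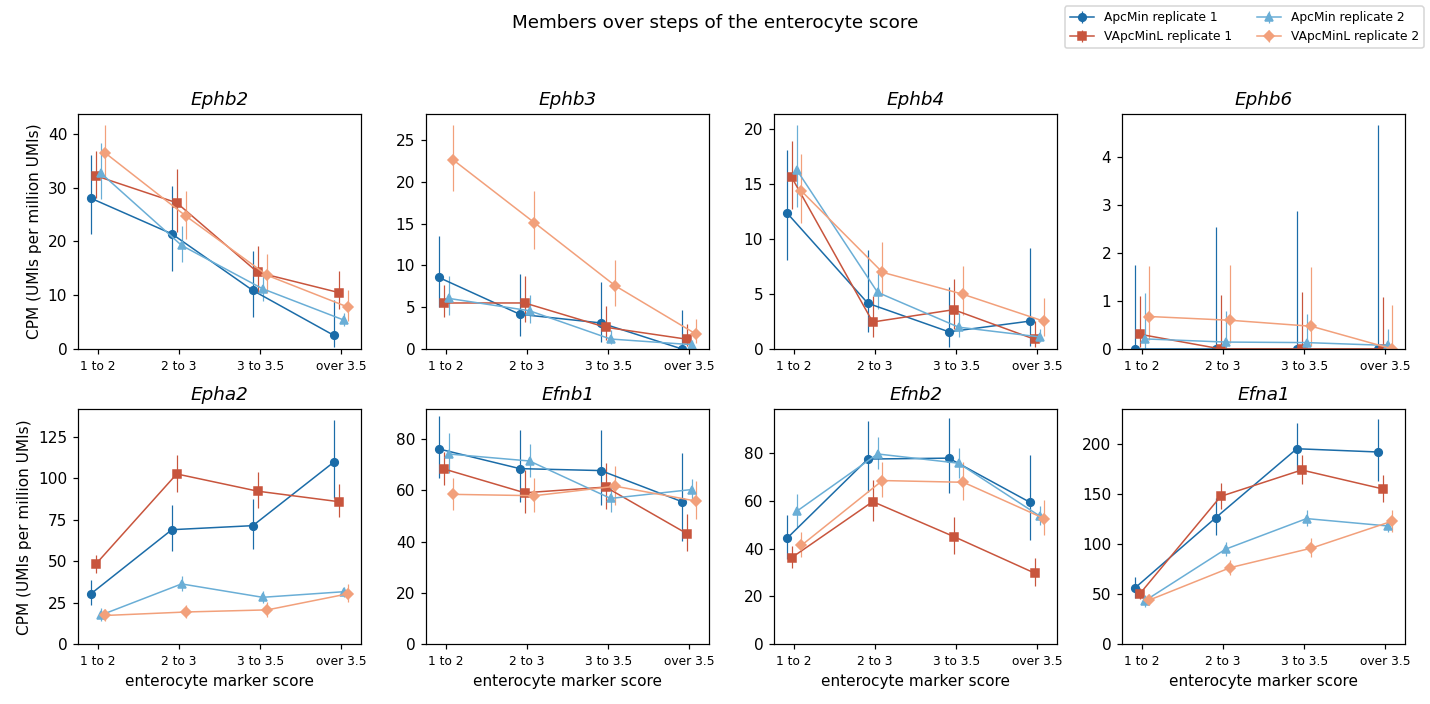
Level in CPM of each member (vertical axis, linear, starting at 0) over 4 steps of the enterocyte marker score (horizontal axis), 1 line per library, with exact 95% Poisson intervals that cover counting error only. Ephb2 goes from 28.1 to 36.4 down to 2.53 to 10.5 in the 4 libraries, while Efna1 goes from 43.2 to 56.1 up to 118 to 192.

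Within adenoma-like cells, the members were followed, again without a test, over 3 steps of the adenoma marker score, which is built from Wnt-induced genes such as Notum, Nkd1 and Wif1. Efna1 was higher at each next step in 4 of 4 libraries, from 16.5 to 27.6 CPM at scores of 0.2 to 0.4 to 31.8 to 55.04 at scores of 0.8 or more. Ephb4 was higher at each next step in 3 of 4 (14.3 to 18.0, then 22.4 to 30.7), and Epha2 was lower at each next step in 3 of 4 (18.2 to 39.6, then 6.67 to 20.6). Ephb2 ended lower in 4 of 4 (39.0 to 47.0, then 27.5 to 39.1), and Ephb3 ended higher in 2 and lower in 2. Neither crypt receptor was thus higher at each next step with these Wnt-induced genes in any library. The highest step held 24 to 301 cells per library, and only 24 in ApcMin replicate 1.

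In fibroblast-like cells no member was called higher than in adenoma-like cells and 4 of 8 were lower, against 22.1% and 23.9% of all genes (45.9% called). Ephb3 was lower at -2.35 (SE 0.32, adjusted p = 2.64e-05) and Efna1 at -1.74 (SE 0.44, adjusted p = 0.00432). Ephb2 was lower as well (adjusted p = 3.15e-06), with 3827 UMIs in adenoma-like against 3 in fibroblast-like cells, a ratio of 23.0 (exact 95% interval 7.88 to 111.8). The Epha2 call (-0.92, SE 0.35, adjusted p = 0.0405) was lost without any of ApcMin replicate 1 (-0.73, adjusted p = 0.268), VApcMinL replicate 1 (-0.84, adjusted p = 0.131) and ApcMin replicate 2 (-0.97, adjusted p = 0.0619). Efnb1 differed by 0.32 (SE 0.24, adjusted p = 0.300), Ephb6 by 0.95 (SE 0.59, adjusted p = 0.207), Ephb4 by -0.80 (SE 0.34, adjusted p = 0.0705) and Efnb2 by -0.83 (SE 0.37, adjusted p = 0.0840), and Efnb2 passed without VApcMinL replicate 1 (-1.16, adjusted p = 0.0306). Fibroblast-like cells held 291 to 524 CPM over 5 general epithelial markers, against 7053 to 8404 in adenoma-like cells.

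Endothelial-like cells, present in number only with kit version 2, had 3 members higher and 2 lower than adenoma-like cells of 8 tested, against 18.2% and 20.3% of all genes (38.6% called). Ephb4 was higher by 2.505 (SE 0.26, adjusted p = 4.12e-07), Efna1 by 2.41 (SE 0.24, adjusted p = 2.52e-07) and Efnb2 by 2.24 (SE 0.32, adjusted p = 1.75e-05). These are the venous receptor, the arterial ligand and ephrin-A1. Both crypt receptors were called lower with 1 UMI each, the adenoma-like level being 33.2 times higher for Ephb2 (exact 95% interval 5.94 to 1314) and 58.1 times higher for Ephb3 (10.4 to 2297). Efnb1 (0.71, SE 0.31, adjusted p = 0.0771), Epha2 (-0.10, SE 0.36, adjusted p = 0.861) and Ephb6 (-1.77, SE 1.42, adjusted p = 0.361) did not pass, although Efnb1 did so with library totals (0.87, adjusted p = 0.0184), under which Epha2 was at 0.06 and the median of all genes moved from -0.12 to 0.04.

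Against fibroblast-like cells the same 3 were higher in endothelial-like cells, Efna1 by 5.001 (SE 0.37, adjusted p = 1.04e-38), Ephb4 by 3.60 (SE 0.41, adjusted p = 2.42e-17) and Efnb2 by 2.55 (SE 0.40, adjusted p = 1.23e-09). That made 3 of 5 members tested higher and none lower, where 18.2% of all genes were higher and 17.2% lower (35.4% called). Only the kit version 2 libraries entered, so these small p-values rest largely on variation estimated over many genes. Epha2 (0.98, adjusted p = 0.132) and Efnb1 (0.49, adjusted p = 0.321) did not pass. Among the 120 endothelial-like cells of ApcMin replicate 1, 30 held a UMI of Ephb4 and none of Efnb2, 19 the reverse, 9 both and 62 neither. The 66 cells of VApcMinL replicate 1 gave 16, 12, 9 and 29. Most cells thus showed neither gene or only 1 of them, at median depths of 3124 and 3401 UMIs, where a missing UMI does not show that a gene is off. Whether both genes met in fewer cells than their single shares would give was not tested.

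The genotype comparison asked whether the members differ between the 2 labels. No loss of Lef1 transcript was seen in adenoma-like cells, so it cannot show what loss of Lef1 does to the members. In adenoma-like cells none of the 8 was called between the libraries labelled VApcMinL and ApcMin with edgeR and the kit as a block, where 0% of the 12835 genes were called, 42 had an unadjusted p under 0.05, and DESeq2 called 6. The fitted log2 differences ran from -0.32 for Efnb2 (SE 0.60) to 0.05 for Efnb1 (SE 0.18), all with an adjusted p of 1. Mean levels were close for Ephb2 (41.1 ± 2.19 in ApcMin and 40.1 ± 11.7 in VApcMinL, SD, n = 2 each). Within kits and with TMM scaling, 7 of the 8 members had opposite log2 signs in kit version 2 and kit version 3. Efnb2 was at -1.35 and 0.70, Epha2 at -0.77 and 0.40, Ephb2 at -0.49 and 0.39, and Lef1 at 1.42 and -0.51. The exception with TMM scaling was Efnb1, at 0.04 and 0.10. In plain CPM 7 of 8 had opposite signs as well, but the exception was Ephb3 (-0.14 and -0.0115), and Efnb1 was at 0.12 and -0.00297, so the kit version 3 signs of both turned with the scaling. The adenoma markers moved with the library in the same crossed way: Notum was at 113 and 308 CPM in the ApcMin and 448 and 104 in the VApcMinL libraries, and Wif1 at 13.1 and 199 against 233 and 29.6. Their part in the member values was not tested.

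In enterocyte-like cells none of 7 members was called, where 0.00889% of 11248 genes were called (1 gene), 144 had an unadjusted p under 0.05 and DESeq2 called 3. Ephb3 gave 1.36 (SE 0.63, adjusted p = 1), which came from kit version 3 (2.18) more than kit version 2 (0.16). Ephb2 gave 0.46 (SE 0.25, adjusted p = 1), with 0.43 and 0.51 within the kits. Its VApcMinL levels (17.3 and 16.1) lay above its ApcMin levels (13.3 and 10.4), at cell-free levels of 10.5 and 14.0 in the VApcMinL and 14.6 and 16.3 in the ApcMin libraries. In fibroblast-like cells only Efnb1 had enough UMIs to be tested (-0.44, SE 0.45, adjusted p = 1.00), where 0.0172% of 5812 genes were called (1 gene), 142 had an unadjusted p under 0.05 and DESeq2 called 2. Crypt-like and endothelial-like cells came from 1 kit each, so their values by label stand above without a test. Within kit version 3, the crypt-like log2 differences of members with at least 33 UMIs in both libraries together ran from -0.25 (Efnb2) to 0.23 (Ephb3).

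The share of adenoma-like cells with a UMI was also compared after thinning each cell to 1000 UMIs. For Ephb2 it was 4.42 and 4.48% in the ApcMin and 2.49 and 5.36% in the VApcMinL libraries, a difference of -0.53 percentage points (two-sided exact permutation p = 1.0). For Ephb3 it was 5.41 and 4.48% against 5.69 and 6.03%, a difference of 0.92 points (exact permutation p = 0.33, the smallest that 2 against 2 libraries can give). Without thinning, Ephb2 was seen in 59.2 and 64.8% against 42.2 and 64.1% of cells and Ephb3 in 64.4 and 72.2% against 55.3 and 67.4%, at median depths of 17754 to 31853 UMIs. Myeloid-like cells, which should lack both genes, showed Ephb2 in 0% and Ephb3 in 0 to 2.52% of cells, at median depths of 3863 to 9784. At 1000 UMIs per cell the labels did not separate in the share of cells with Ephb2. For Ephb3 both VApcMinL shares lay above both ApcMin shares, by 0.29 points within kit version 2 and 1.55 within kit version 3. Without thinning the Ephb3 difference was -6.93 points, so its sign rests on the thinning.

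**Figure D4:**
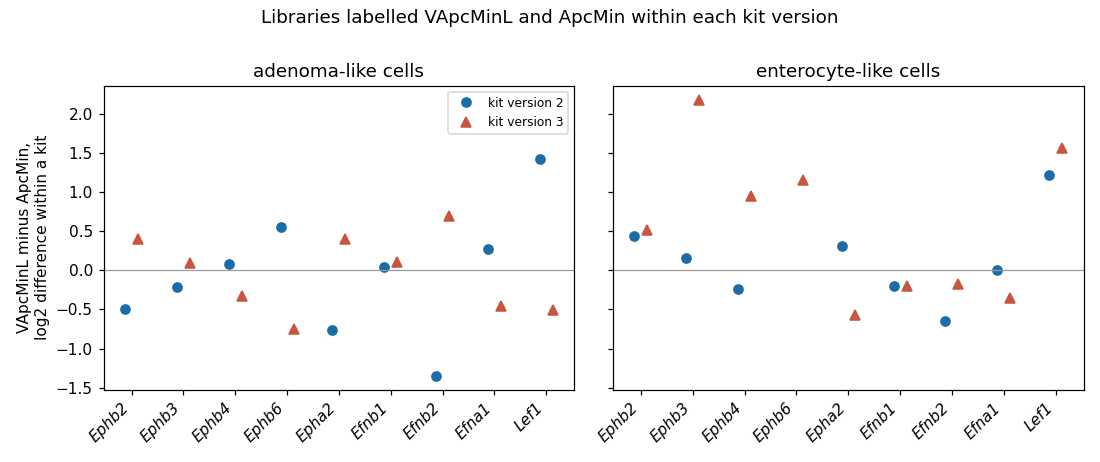
Log2 difference, with TMM scaling, between the libraries labelled VApcMinL and ApcMin (vertical axis) for each member and Lef1 (horizontal axis), 1 point for each kit version, in adenoma-like and enterocyte-like cells. In adenoma-like cells the points of 7 members lie on opposite sides of 0, and in enterocyte-like cells Ephb2 lies above 0 with both kits (0.43 and 0.51).

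Of 14 other Eph and ephrin genes, 7 had enough UMIs to be tested between adenoma-like and enterocyte-like cells. Higher in adenoma-like cells were the receptors Epha7 (3.97), Epha5 (3.61) and Epha4 (1.92) and the ligands Efna2 (3.83) and Efna4 (2.85), while the receptor Epha1 was lower (-2.14), all with an adjusted p of at most 0.00129. That is 6 of 7, where 75.4% of all genes were called. Enterocyte-like cells held only 13 UMIs of Epha7, 10 of Epha5 and 4 of Efna2 in all libraries together. Against crypt-like cells, Epha7 (2.54, with 5 UMIs in crypt-like cells) and Epha4 (0.82, edgeR adjusted p = 0.0496) were higher too. So was Epha5 (1 UMI in crypt-like cells, a ratio of 20.2, exact 95% interval 3.59 to 800), and Efna3 was lower (-1.95), among 6 tested. Efna4 stood with the EphB receptors, being higher than in enterocyte-like cells also in crypt-like (2.74) and Paneth-like cells (2.69). Epha1 stood with Epha2, being lower in crypt-like (-2.60) and Paneth-like cells (-2.40). In fibroblast-like cells Efna5 (3.14), Efna2 (1.99) and Epha3 (3 UMIs in adenoma-like cells, a ratio of 424, interval 128 to 2208) were higher than in adenoma-like cells, while Efna4 (-1.39) and Epha1 (2 UMIs in fibroblast-like cells, the adenoma-like level being 8.08 times higher, interval 2.23 to 66.9) were lower, among 8 tested. In endothelial-like cells Efnb3 was higher (5.11), and Efna4 (2 UMIs, the adenoma-like level being 15.6 times higher, interval 4.31 to 129) and Epha1 (no UMI) were lower, among 7 tested. No such gene was called by genotype.

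Of 24 genes that act with or downstream of Eph receptors, 22 were tested between adenoma-like and enterocyte-like cells, and 5 were higher and 11 lower. These 16 of 22 lie near the 75.4% of all genes called, so the count is no result about the list. The exchange factor Tiam1 (3.32), the Src family kinase Fyn (2.77), Dvl2 (1.24) and Vav3 (1.17) were the largest called rises. The polarity gene Pard6b (-2.22), the exchange factor Ngef (-1.88), E-cadherin (Cdh1, -1.48) and Src (-1.45) were the largest called drops. Crypt-like against enterocyte-like cells gave 2 higher, among them Tiam1 (3.72), and 6 lower of 22, where 57.6% of all genes were called. Kalrn (-4.29, on 8 UMIs in crypt-like cells) and Pard6b (-3.11) were the lowest. Adenoma-like against crypt-like cells gave 5 higher, led by Kalrn (3.25) and Fyn (2.14), and 2 lower, Ngef (-0.98) and Cdh1 (-0.48), of 22, again near the background of 32.2%. The crypt-like sums there held only 8 UMIs of Kalrn and 12 of Fyn. Endothelial-like against adenoma-like cells gave 7 higher, led by Grb10 (4.88) and Fyn (4.09), and 7 lower of 23 (background 38.6%), and no gene of the list was called by genotype in any class tested.

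Over 50 sums of a class in a library, the genes whose log2 levels followed Ephb2 most closely were Cdcp1 (Pearson r = 0.88), Atp1b1 and Chmp4c (both 0.86), among 12934 genes. Ephb3 was followed by Pla2g2f (0.74), Ephb4 by Nfib (0.81), Efnb1 by Cttn (0.88), Efnb2 by Stap2 (0.79), Efna1 by Asap2 (0.77) and Epha2 by Anxa2 (0.75). Ephb6 was most like Lef1 itself (0.72), but it passed 20 CPM only in the tuft-like sum of VApcMinL replicate 2 (21.7 CPM). That sum held 2 UMIs of Ephb6 and 2 of Lef1, so the value rests on very low counts. Sums of the same library share depth and cell-free RNA, so these values are descriptions.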

How the data were processed

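Droplet-based 3′ scRNA-seq was done on 4 libraries of pooled, enzymatically dissociated and unsorted adenomas. The authors deposited per-library tables of raw UMI counts per gene and barcode made with Cell Ranger (version 2.1.1 in the submitters' processing notes, which also name Seurat 3.1.1) on an mm10 reference. The header of the kit version 3 tables names another Cell Ranger version. Nothing in the counts was normalized. Totals per library were 44660305 to 128247396 UMIs, and genes outside the 27514 shared by all tables held 0.19 to 0.57% of them. Intervals and zero limits (3 counts) cover counting error only.

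Barcodes with at least 1000 UMIs and at most 20% mitochondrial UMIs were kept (12400) and 8817 of them gated by mean log marker scores, with no member gene among the markers. Score thresholds were set on the markers after these were seen. Crypt-like cells also needed at least 2 Olfm4 UMIs per 10000 and an adenoma score under 0.1. Adenoma-like and crypt-like cells both needed an enterocyte score under 1. The remaining 3583 cells fell in no class. Scrublet marked 330 cells, which were left out only in an alternative. The members, marker lists and other gene lists were chosen with earlier results of these data known. Genes named besides the members and Lef1 are the other Eph and ephrin genes called in a comparison, up to 4 of the largest called changes of the signalling list, and the genes most alike by Pearson correlation among those reaching 20 CPM (UMIs of a gene per 1000000 UMIs of a sum) in some sum.

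Counts were summed per library and class with at least 10 cells and tested with edgeR 4.0.16 (R 4.3.3; quasi-likelihood, TMM scaling, filterByExpr with a minimum count of 10), with Benjamini-Hochberg adjustment over all genes tested and calls at 0.05. Class comparisons had the library as a block and genotype comparisons the kit, which the labels tie to the replicate number. Deviations of same-numbered libraries correlated at 0.15 in adenoma-like, 0.34 in enterocyte-like and 0.48 in fibroblast-like cells. The study's methods speak of repeats in independent cohorts and of pooled tumors but do not tie these libraries to animals. The p-values therefore do not measure the spread between animals. They set a difference against the variation left after the block is removed, which edgeR estimates with information shared over genes. A very small p-value from 2 libraries is thus not a measure of how alike the libraries are. Alternatives were DESeq2 1.42.0, no filter on low counts, library totals, no block, other limits and gates, doublet removal, thinning to 1000 UMIs and leaving out each library. Kept barcodes shared by libraries numbered 18 in the kit version 2 pair and 1 elsewhere. The script was tested on simulated data.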

Additional observations from a re-analysis of the deposited data

Results flagged for a closer look

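With TMM scaling, Ephb2 and Efnb1 went one way in both kits in 1 cell class and the other way in both kits in another class. They were not the only members to do so, the others resting on fewer UMIs in at least 1 of the classes. Ephb3 was at 0.16 and 2.18 (kit version 2 first) in enterocyte-like cells. In goblet-like cells it was at -0.93 and -0.49, with 15 UMIs in kit version 2. These differences between classes were not tested, and each rests on 2 libraries per label. Between the libraries labelled VApcMinL and ApcMin, the log2 difference of Ephb2 was 0.43 with kit version 2 and 0.51 with kit version 3 in enterocyte-like cells, and -0.60 and -0.0446 in goblet-like cells. Without the TMM factor, the goblet-like value of Ephb2 with kit version 3 was 0.0615, so its sign there rests on the scaling. The TMM-scaled difference of Efnb1 was 0.0433 and 0.10 in adenoma-like cells and -0.20 and -0.20 in enterocyte-like cells. Without the TMM factor, the adenoma-like value with kit version 3 was -0.00297, so the shared sign in that class rests on the scaling too. Groups of 2 libraries are too small to look for a single library far from the others.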

How the results depend on the processing

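Leaving out 1 library turned the sign of 0 of 92 member values between classes and of 17 of 64 by genotype, and the other alternatives turned 9 of 414 and 4 of 140. No member was called by genotype with edgeR or DESeq2 under any alternative, with or without the replicate block (with and without it 0 of 8 in adenoma-like, 0 of 7 in enterocyte-like and 0 of 1 in fibroblast-like cells, with 0 members at an unadjusted p under 0.05). Over all 38 alternative genotype fits, 4 had 1 member at an unadjusted p under 0.05. Without the replicate block Epha2 in enterocyte-like cells turned to 0.0898, and with cells thinned to 1000 UMIs it turned to 0.25, Ephb3 in adenoma-like cells to 0.21 and Efnb2 there to 0.0214. Leaving out 1 library at a time, fitted without the kit block, gave adenoma-like log2 differences of -0.33 to 0.15 for Ephb2, -0.32 to 0.16 for Ephb3, -0.29 to 0.00671 for Ephb4, -0.58 to 0.31 for Ephb6, -1.03 to 0.66 for Epha2, -1.18 to 0.43 for Efnb2 and -0.72 to 0.45 for Efna1. In enterocyte-like cells it gave -0.15 to 0.87 for Ephb4, -1.36 to 0.93 for Epha2 and -0.64 to 0.21 for Efna1. The Ephb2 share difference ran from -1.96 to 0.91 points, and that of Ephb3 was -6.93 points without thinning.

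In adenoma-like against crypt-like cells Efna1, which was near 0, gave 0.00103 with DESeq2, 0.0128 with no filter, 0.13 with library totals, 0.0157 with no library block, 0.00067 with at least 2000 UMIs and 0.0037 with a stricter gate. Ephb2 gave 0.0281 with library totals and 0.77 after thinning, and Epha2 in endothelial-like against adenoma-like cells gave 0.0611 with library totals. Of the members, DESeq2 called 3 of 8 between adenoma-like and crypt-like cells (17.2% of all genes), and a 10% mitochondrial limit left 4 of 6 called in Paneth-like cells (27.4%). That limit also left only 3 libraries in the Paneth-like fit. After thinning, fewer members had enough UMIs to be tested, with 3 of 4 called in crypt-like (41.7% of all genes) and 1 of 2 in Paneth-like against enterocyte-like cells (32.0%), 0 of 2 in adenoma-like against crypt-like (14.8%) and 0 of 1 in fibroblast-like against adenoma-like cells (36.5%), where edgeR gave 1 and 0 members at an unadjusted p under 0.05.

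Over all genes, DESeq2 called 2012 in place of 3914 between adenoma-like and crypt-like cells, 2450 in place of 4555 between endothelial-like and adenoma-like cells and 1062 in place of 2295 between endothelial-like and fibroblast-like cells. The 10% mitochondrial limit gave 1999 in place of 4175 for Paneth-like cells, with 3 libraries left. Thinning, after which fewer genes were tested, left 523 to 4553 calls. By genotype, 0 to 6 genes were called in adenoma-like, 0 to 38 in enterocyte-like and 0 to 34 in fibroblast-like cells, the most with no filter in the latter classes. Crypt-like and endothelial-like comparisons had 2 libraries and no fit without 1 of them, and Paneth-like cells gave no value with at least 2000 UMIs or a stricter gate.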

Other observations

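Tuft cells, the chemosensory cells of the epithelium, and goblet cells, which secrete mucus, also carried Ephb2 and Efnb1. In the 2 libraries with at least 10 tuft-like cells, these held no UMI of Epha2 and 1 of Ephb3. Efnb1 was at 165 CPM in the 13 tuft-like cells of ApcMin replicate 2 (13 UMIs, exact 95% Poisson interval 88.0 to 283) and at 65.0 in the 14 of VApcMinL replicate 2 (6 UMIs, 23.8 to 141), where enterocyte-like cells held 62.1 and 58.4. Ephb2 was at 50.9 and 65.0 in these tuft-like cells, on 4 and 6 UMIs. Goblet-like cells held Ephb2 at 19.98 to 33.9, Ephb3 at 4.61 to 17.0 and Efnb1 at 47.7 to 67.7 in 4 libraries. For Ephb2 the goblet-like range lay above the enterocyte-like one (10.4 to 17.3) and overlapped the Paneth-like one (21.1 to 43.8).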
